A study of Drosophila melanogaster with 36 samples.

Results

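The comparison described here sets a fruit fly strain with an allele of Antennapedia (Antp73b) directly against a strain with an allele of apterous (ap56f). It rests on 8 of the 36 arrays of the series, chosen by their titles: on arrays 58 to 61 Antp73b was labelled with Cy3 (channel 1) and ap56f with Cy5 (channel 2), and on arrays 70 to 73 the colours were exchanged. The labels give the strains as Antennapedia[73b], apterous[56f] and OregonR, a wild-type strain of Drosophila melanogaster. All flies were adults from a commercial supplier. Poly(A) mRNA of whole flies was hybridised to 15732 spotted elements, each present as a pair of spots. The sources used here do not state sex, age, how many RNA extractions were made, or the genetic background beyond the named allele. The p-values therefore reflect how far arrays differ from each other, and that spread may be technical. In whole flies, fewer cells of a type and less RNA per cell cannot be told apart. The values are ratios without levels, so the tissue cannot be checked against marker genes.

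Antennapedia encodes a homeodomain transcription factor that gives thoracic segments their identity. Its 73b allele is a dominant one known for turning antennae into legs, because the protein is made in the head. apterous encodes a LIM-homeodomain factor that marks the dorsal side of the developing wing, and flies that lack it have no wings. Its product is also needed in muscle, in neurons and, through juvenile hormone, in the maturation of eggs. Both proteins act mainly while the body is being built, and the RNA here came from adults.

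Each value is a log2 ratio, centred on the array's median, with the sign of arrays 70 to 73 turned so that all 8 arrays run as Antp73b minus ap56f. On all 8 arrays that median was already 0, so the centring changed none of their values. The sources do not say which channel a positive deposited ratio stands for, so each gene is placed on the plus or the minus side. Plus means more transcript in Antp73b where the deposited ratio was formed with channel 1 on top, and less transcript in Antp73b where channel 2 was on top. The strain difference of an element is the mean of both orientations, which is the difference between the orientations before turning, divided by 2. It was tested with limma, and an element is called at a Benjamini-Hochberg adjusted p under 0.05 over all elements tested.

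The elements carried a colour offset of their own. Between the orientations the turned arrays correlated across elements at r of -0.272 to -0.0671, while arrays of 1 orientation correlated at 0.451 to 0.652. After the mean of the 8 arrays that hybridised Antp73b or ap56f against itself was subtracted, r between the orientations was -0.0438 to 0.332. A dye term in the model takes up this offset, and it passed the threshold for 3009 elements (20.0%). A gene with an offset therefore has higher turned values in 1 orientation than in the other. The direct arrays held 28002 to 30166 spots with a value, the spots of a pair correlated at r of 0.449 to 0.834, and the SD of log2 ratios was 0.252 to 0.383, against 0.218 to 0.323 on the self-hybridised arrays. In both orientations the last 2 arrays by number had a larger SD than the first 2.

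Of 15078 elements tested, 1085 were called (7.2%), of which 720 were plus (4.78%) and 365 minus (2.42%). The plus side held 66.4% of the calls; with arrays centred on a trimmed mean it held 55.3% of 1044 calls. Of the 1085 called elements, 924 carried 1 gene, 156 no gene and 5 several genes. The 924 stood for 882 of 10555 genes (8.36%), 590 of them plus (5.59%) and 292 minus (2.77%). Among these genes, 35 had more than 1 called element, with 0 of them on opposite sides. Few called elements were large: their median fold was 1.25, and 129 of them reached 1.5-fold. A difference of 2-fold was reached by 44 (0.292% of those tested, 30 plus and 14 minus) and 4-fold by 2. Of the 44, 14 carried no gene or several genes and could not be named below. The median SE was 0.0702 on the log2 scale, and an unadjusted p under 0.05 was reached by 2990 elements. Fits of 4 arrays gave fewer calls: 164 on the first 2 arrays of each orientation, 130 on the last 2, 202 on even-numbered and 142 on odd-numbered arrays.

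The largest differences on the minus side were those of 2 lysozymes, followed among others by a lectin and, lower in the order, 2 Jonah proteases of the gut, and those on the plus side included a lectin, a glucosidase and a cytochrome P450. For each side the 12 largest are plotted array by array. These 24 genes stood on the same side on 8 of 8 arrays, which partly follows from choosing them by these values. For 24 of 24 the 8 direct values lay outside the range of the self-hybridised arrays of both strains (6 values for CG4650). The self-hybridised values are not turned, so on arrays 70 to 73 a colour offset enters with the opposite sign. The SE of the 24 genes ran from 0.0627 to 0.102, and their limma adjusted p from 5.25e-13 to 4.72e-08.

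**Figure D1:**
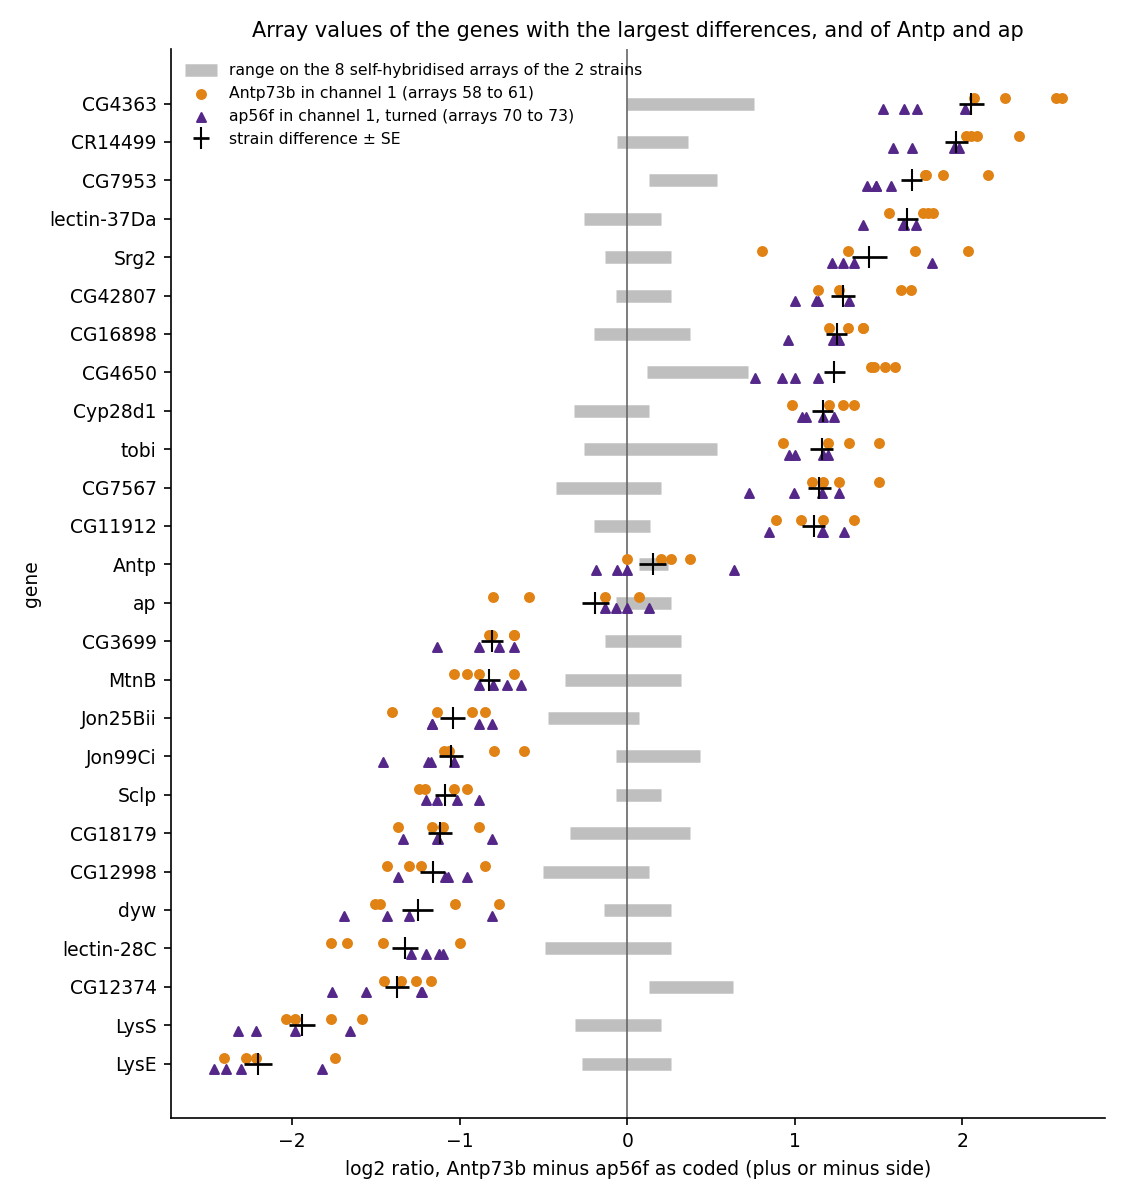
Turned log2 ratios (horizontal axis) of 12 genes per side, those with the largest differences, with Antp and ap between them. Circles are arrays 58 to 61, triangles arrays 70 to 73, and black ticks the strain difference with its SE. Grey bars are the range on the 8 self-hybridised arrays of both strains, whose values are not turned. The 24 genes lie outside their grey bars, while Antp and ap straddle 0.

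LysE, which encodes a lysozyme made in the midgut that digests bacteria, had log2 ratios of -2.22, -1.74, -2.28 and -2.41 on arrays 58 to 61 and of -2.30, -1.82, -2.47 and -2.39 on arrays 70 to 73. All 8 values lay far on the minus side, and the orientations overlapped. The difference of LysE was -2.20 (SE 0.0818, 4.61-fold, limma adjusted p = 6.88e-13). LysS, a neighbouring lysozyme gene, had -1.98, -1.58, -2.04 and -1.77 on arrays 58 to 61 and -1.98, -1.65, -2.22 and -2.32 on arrays 70 to 73. It too had no array near 0, and its difference was -1.94 (SE 0.0772, 3.84-fold, limma adjusted p = 1.38e-12). LysX, the other lysozyme tested, stood at -0.92 to -0.26, with a difference of -0.58 (SE 0.0653, limma adjusted p = 4.73e-06). Several genes of this cluster are near-identical copies and may share signal, and the sources give no spotted sequences.

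On the plus side CG4363 had 2.25, 2.07, 2.561 and 2.596 on arrays 58 to 61 and 2.02, 1.73, 1.53 and 1.65 on arrays 70 to 73. The orientations did not overlap, and every value was above 1.5. Its difference was 2.05 (SE 0.0740, 4.15-fold, limma adjusted p = 6.88e-13). CR14499 (1.96) and CG7953 (1.70) came next.

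lectin-37Da, which encodes a secreted sugar-binding protein of the C-type lectin family, had 1.83, 1.56, 1.76 and 1.79 on arrays 58 to 61 and 1.65, 1.41, 1.72 and 1.65 on arrays 70 to 73. All 8 values lay close together, and the difference was 1.67 (SE 0.0634, 3.19-fold, limma adjusted p = 7.01e-13). A lectin of the same family stood on the other side: lectin-28C had -1.77, -1, -1.67 and -1.46 on arrays 58 to 61 and -1.29, -1.10, -1.20 and -1.12 on arrays 70 to 73, a difference of -1.33 (SE 0.0763, 2.51-fold, limma adjusted p = 3.07e-10). Its array nearest to 0 was array 59. Lectin-galC1, a galactose-binding lectin, was also on the minus side (-0.74, limma adjusted p = 2.77e-06). Of 13 C-type lectin genes tested, 2 were called on each side, against 5.59% plus and 2.77% minus of all genes. The median of the list was -0.01, against 0.03 over all genes. The fourth called lectin, lectin-46Cb (0.24), lost its call when any of several arrays was left out, and its other element gave 0.14 (limma adjusted p = 0.308); without array 60, 61, 70, 71, 72 or 73 only 1 lectin element was called on the plus side.

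dyw (daywake), known for its effect on daytime sleep, had -1.51, -0.76, -1.48 and -1.02 on arrays 58 to 61 and -0.81, -1.30, -1.43 and -1.69 on arrays 70 to 73. Its values spread widely within either orientation, and its difference was -1.25 (SE 0.0933, 2.38-fold, limma adjusted p = 1.23e-08). MtnB, which encodes a metal-binding metallothionein, stood at -1.03 to -0.63 with a difference of -0.82 (SE 0.0638, limma adjusted p = 2.29e-08). The others on the minus side were CG12374 (-1.38), CG12998 (-1.16), CG18179 (-1.12, and -0.83 on a second element), Sclp (-1.09) and CG3699 (-0.81), besides the Jonah proteases below. On the plus side they were Srg2 (1.45), CG42807 (1.29), CG16898 (1.25), CG4650 (1.24), CG7567 (1.15) and CG11912 (1.11), besides tobi and Cyp28d1. CG42807 rests on 1 of its elements: the other gave 0.19 (limma adjusted p = 0.0634). Srg2 varied most, with values of 2.04 and 0.81 on arrays 58 and 59.

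Neither gene that names the strains was called on the direct arrays. Antp had log2 ratios of 0.37, 0.26, 0.00 and 0.20 on arrays 58 to 61 and -0.19, -0.06, 0.00 and 0.64 on arrays 70 to 73. The values lay on both sides of 0, and the difference was 0.15 (SE 0.0810, limma adjusted p = 0.311). ap had -0.13, 0.07, -0.59 and -0.80 on arrays 58 to 61 and 0.00, -0.13, -0.07 and 0.13 on arrays 70 to 73. Arrays 60 and 61 stood apart from the other 6, and the difference of -0.19 (SE 0.0825, limma adjusted p = 0.201) was -0.15 without array 60 and -0.12 without array 61. In a fit of all 36 arrays ap did pass, at -0.20 (limma adjusted p = 0.0289). Which part of each gene its element covers is not stated, so these values do not check the labels. Among the nearest tested genes along the chromosome, up to 25 on each side, 2 of 46 were called around ap (4.35%), both on the minus side, and 0 of 50 around Antp, against 8.36% over all genes.

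Genes of the developmental programmes in which both factors act were looked at in 3 short lists, against a share of 8.36% called over all genes. Of 9 genes tested, those of the Antennapedia complex (Antp among them) and teashirt (tsh), 0 were called, and their median difference was 0.04. Ubx, abd-A and Abd-B were not in this list. Dfd stood at 0.23, zen2 at 0.14, zen at 0.13, tsh at 0.04, pb at 0.03, Scr at 0.00 and ftz at -0.15. The 2 elements of bcd gave -0.02 and 0.02. Of 24 genes of wing patterning and the apterous pathway, such as the cofactor Chi and the wing selector vg, 0 were called, with differences of -0.19 to 0.24. Of 20 genes that pattern legs and antennae, such as Dll and ss, 0 were called, with differences of -0.11 to 0.22.

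**Figure D2:**
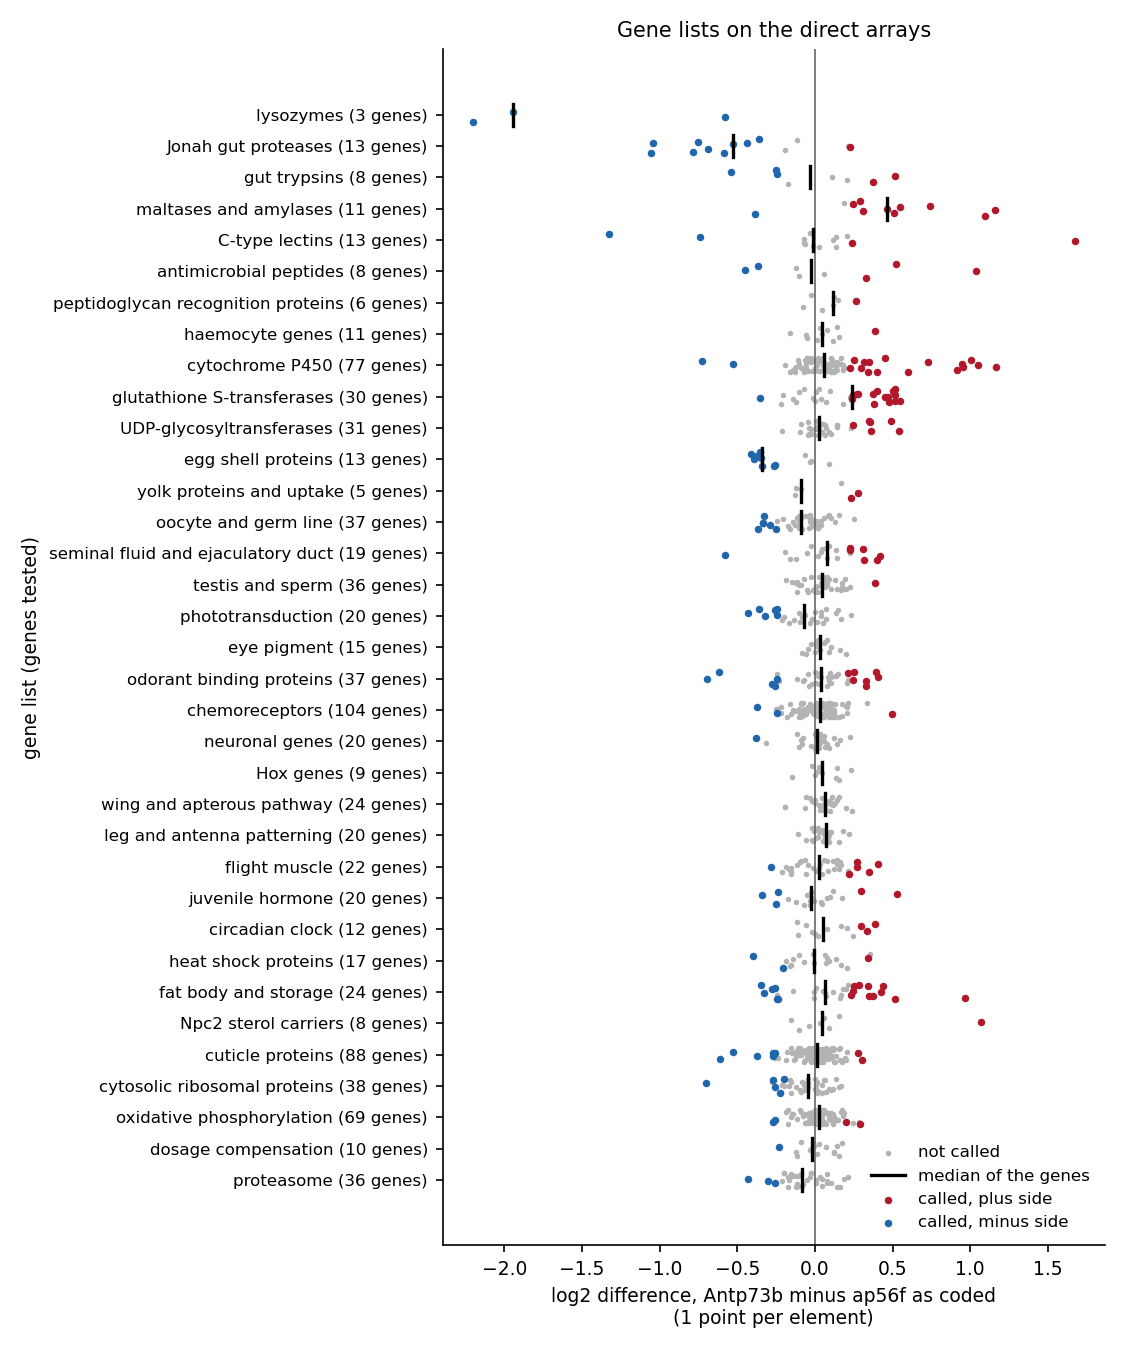
Strain difference (log2, horizontal axis) of the elements of 35 gene lists, 1 point per element, with called elements in red (plus side) and blue (minus side) and the median of each list as a black bar. Lysozymes, Jonah proteases and egg shell genes have their medians on the minus side (-1.94, -0.53 and -0.34), maltases and amylases and the glutathione S-transferases on the plus side (0.46 and 0.24).

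The Jonah genes encode a family of trypsin-like and chymotrypsin-like proteases secreted into the gut. Of 13 tested, 9 were called minus and 1 plus, against 2.77% and 5.59% of all genes. The median difference of the list was -0.53. All 35 lists were chosen with earlier results of these data known, so a high count may follow partly from that choice. Jon99Ci had -1.06, -1.09, -0.61 and -0.79 on arrays 58 to 61 and -1.17, -1.04, -1.46 and -1.19 on arrays 70 to 73. The lowest values of the first orientation overlapped the second, and the difference was -1.05 (SE 0.0709, 2.07-fold, limma adjusted p = 2.73e-09). Jon25Bii (-1.04), Jon66Ci (-0.78) and Jon66Cii (-0.76) followed, each on the minus side on 8 of 8 arrays. The exception was Jon74E at 0.23 (limma adjusted p = 0.0461), whose call was lost without array 58, 59, 70, 71 or 72. Jonah genes resemble each other in sequence and may share signal.

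Among the alpha, beta and other trypsins of the gut, 8 genes were tested, and the median was -0.03. On the plus side 2 were called and on the minus side 3, against 5.59% and 2.77% of all genes. kappaTry (0.52, limma adjusted p = 5.01e-05) and lambdaTry (0.37, limma adjusted p = 0.000821) stood on the plus side, and thetaTry (-0.54, limma adjusted p = 8.04e-06) on the minus side. iotaTry, at -0.25, lost its call without some arrays, and without array 60, 70, 72 or 73 only 1 trypsin was called on the minus side.

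Maltases and amylases split starch and sugars. Of 11 tested, 9 were called plus and 1 minus, against 5.59% and 2.77% of all genes. The median difference of the list was 0.46. tobi, an alpha-glucosidase named as a target of brain insulin, had 1.32, 1.2, 0.93 and 1.5 on arrays 58 to 61 and 1.17, 0.96, 1 and 1.2 on arrays 70 to 73. The orientations overlapped, and the difference was 1.16 (SE 0.0691, 2.24-fold, limma adjusted p = 5.16e-10). Amyrel, an amylase-related gene, had 0.998, 0.99, 1.32 and 0.76 on arrays 58 to 61 and 1.29, 0.72, 1.14 and 1.55 on arrays 70 to 73, a difference of 1.097 (SE 0.0825, limma adjusted p = 1.38e-08). Its orientations overlapped too, and no array came near 0. Of the maltases, which cut maltose in the midgut, Mal-A1 stood at 0.74 and Mal-A4 at 0.55. Mal-B1, at -0.39 (limma adjusted p = 0.00141), was the exception. In the 4 fits of 4 arrays each, 3 to 6 members of this list were called plus and 4 to 7 Jonah genes minus.

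Defence genes stood on both sides. Of 8 antimicrobial peptide genes tested, which are induced in the fat body by infection, 3 were called plus and 2 minus. Of all genes, 5.59% were called plus and 2.77% minus. Mtk, encoding the antifungal peptide metchnikowin, had 0.96, 1, 0.93 and 1.13 on arrays 58 to 61 and 0.96, 0.90, 1.33 and 1.06 on arrays 70 to 73. The values clustered near 1 in both orientations, and the difference was 1.03 (SE 0.0649, 2.05-fold, limma adjusted p = 1.00e-09). DptB, which encodes a diptericin active against Gram-negative bacteria, stood at 0.52 (limma adjusted p = 0.00014), while Drs, which encodes the antifungal drosomycin, stood at -0.45 (limma adjusted p = 4.3e-05) and Drsl6, of the same family, at -0.37 (limma adjusted p = 0.00329). Of 6 peptidoglycan recognition proteins 1 was called, PGRP-SB1 at 0.26, with its call lost without array 58, 70, 71 or 73. Of 11 genes of blood cells 1 was called, Hml (0.39, limma adjusted p = 0.00885), which encodes the clotting protein hemolectin.

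The enzymes that handle foreign compounds include 3 large families. Of 77 cytochrome P450 genes, 15 were called plus and 2 minus, against 5.59% and 2.77% of all genes, while the list's median was 0.06. Cyp28d1 had 0.98, 1.202, 1.29 and 1.35 on arrays 58 to 61 and 1.07, 1.04, 1.17 and 1.23 on arrays 70 to 73. The spread was small in both orientations, and the difference was 1.17 (SE 0.0635, 2.25-fold, limma adjusted p = 1.29e-10). Cyp28a5 (1.05) and Cyp6a20 (1.01) also reached 2-fold. Cyp6a8 stood at 0.95 on the 4 arrays that gave it a value, the even-numbered ones. The minus side held Cyp6a23 (-0.73) and Cyp4e3 (-0.53), chosen for mention after their values were seen.

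Glutathione S-transferases, which couple glutathione to toxins and oxidised lipids, were called on the plus side for 16 of 30 genes and on the minus side for 1, GstO1 (-0.36), which is named because it was the sole exception. The median difference of the list was 0.24, and of all genes 5.59% were called plus and 2.77% minus. GstD5 had 0.63, 0.58, 0.48 and 0.76 on arrays 58 to 61 and 0.63, 0.26, 0.43 and 0.58 on arrays 70 to 73. No array fell below 0.26, and the difference was 0.55 (SE 0.0646, 1.46-fold, limma adjusted p = 8.83e-06). GstD4 stood at 0.52, GstE5 at 0.51 and GstD3 at 0.51. In fits of 4 arrays the plus side held 5 called elements on the first 2 arrays, 0 on the last 2, 7 on even-numbered and 0 on odd-numbered arrays. Without array 61, 3 elements of the list were called on the minus side. Of 31 UDP-glycosyltransferases, which attach sugars to toxins, 6 were called plus and 0 minus, while their median of 0.03 was that of all genes. Ugt37A2 (0.54), Ugt302E1 (0.49), Ugt302C1 (0.36) and Ugt303B1 (0.35) led them. Ugt302C1 had a value on 6 arrays and lost its call without array 59 or 70.

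Genes of egg formation stood on the minus side by small amounts. Of 13 genes of the egg shell, the vitelline membrane and chorion laid down by follicle cells, 9 were called minus and 0 plus. Of all genes, 2.77% were called minus and 5.59% plus, and the median difference of the list was -0.34. Vm32E, a vitelline membrane protein, had -0.42, -0.58, -0.81 and -0.48 on arrays 58 to 61 and -0.26, 0.00, -0.20 and -0.53 on arrays 70 to 73. The values lay at or below 0 in both orientations, and the difference was -0.41 (SE 0.0699, 1.33-fold, limma adjusted p = 0.000615). Cp38, a chorion protein, had -0.26, -0.07, -0.49 and -0.51 on arrays 58 to 61 and -0.37, -0.43, -0.38 and -0.48 on arrays 70 to 73, a difference of -0.37 (SE 0.0656, limma adjusted p = 0.000821). Only array 59 of Cp38 came near 0. Vm34Ca (-0.39) and Femcoat (-0.36) were similar. In each of the 4 fits of 4 arrays, 0 egg shell genes were called, and Vm32E ran from -0.51 to -0.32 and Cp38 from -0.47 to -0.28.

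The 37 genes of the oocyte and germ line had a median of -0.09. Against 2.77% minus and 5.59% plus over all genes, 6 were called minus and 0 plus. They included osk (-0.37, limma adjusted p = 0.00151), which assembles the germ plasm, the RNA helicase gene vas (-0.33), the translational repressor gene smg (-0.33) and gnu (-0.33), needed for the first embryonic divisions. The second elements of osk (-0.20, limma adjusted p = 0.0706) and smg (-0.08, limma adjusted p = 0.519) were not called. Yolk protein genes, which are active in the female fat body and in follicle cells, gave a mixed picture: of 5 genes for yolk proteins and their uptake, whose median was -0.09, Yp3 (0.28, limma adjusted p = 0.00833) and Yp1 (0.23, limma adjusted p = 0.0342) were called on the plus side. The call of Yp1 was lost without some arrays, and the second element of Yp3 gave 0.17 (limma adjusted p = 0.104); without array 59, 60, 71, 72 or 73 only 1 yolk gene element was called.

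Male genes gave small differences too. Of 19 genes of seminal fluid and the ejaculatory duct, 6 were called plus and 1 minus, against 5.59% and 2.77% of all genes. The median of the list was 0.08. EbpII, an ejaculatory bulb protein, had 0.19, 0.32, 0.54 and 0.63 on arrays 58 to 61 and 0.43, 0.49, 0.57 and 0.20 on arrays 70 to 73. All were on the plus side, with a difference of 0.42 (SE 0.0683, limma adjusted p = 0.000375). The accessory gland genes Acp26Ab (0.40) and Acp76A (0.31) stood on the same side on 8 of 8 arrays. The minus gene was Acp65Aa (-0.58, limma adjusted p = 2.29e-05), an adult cuticle protein that entered the list by its name. Without array 73, 2 elements of the list were called on the minus side. Of 36 testis genes 1 was called, betaTub85D (0.39, limma adjusted p = 0.000251), the tubulin of the sperm tail, and 2 were called without array 60 or 72. The sexes of the flies are not given, and the part of sex ratio in these lists was not tested.

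Of 20 genes that photoreceptors use to detect light, 5 were called minus and 0 plus, against 2.77% and 5.59% of all genes. The median of the list was -0.07. Arr2, the arrestin that switches rhodopsin off, had -0.14, -0.20, -0.13 and 0.00 on arrays 58 to 61 and -0.51, -0.69, -0.84 and -0.96 on arrays 70 to 73. The orientations did not overlap, so part of each value is the offset of the colours, and the difference between the strains was -0.43 (SE 0.0651, 1.35-fold, limma adjusted p = 0.000163). Gbeta76C (-0.36) and Ggamma30A (-0.26), subunits of the G protein of vision, lost their calls without some arrays, and Pdh (-0.32) is a dehydrogenase of the pigment cycle. The count of called elements in the list was 6 on all arrays, 2 without array 58 and 3 without array 59, 60 or 73. Of 15 eye pigment genes, 0 were called.

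Of 37 odorant binding proteins and antennal carriers, which bring odours to their receptors, 7 were called plus and 5 minus, against 5.59% and 2.77% of all genes. Among the 5 were Obp44a (-0.25) and Obp99b (-0.28), whose calls are counted again in the fat body list below. Obp99a had -0.37, -0.68, -0.26 and -0.26 on arrays 58 to 61 and -0.63, -0.99, -1.32 and -1.06 on arrays 70 to 73. Array 59 reached the range of the second orientation, and the difference was -0.70 (SE 0.0756, 1.62-fold, limma adjusted p = 2.75e-06). Obp56e stood at -0.68 on each of arrays 58 to 61 and at -0.63 to -0.49 on arrays 70 to 73, a difference of -0.62 (SE 0.0586, limma adjusted p = 4.55e-07). Obp56g (0.41) and the antennal protein gene a5 (0.39, on 7 arrays) stood on the plus side. The count of 7 on the plus side was 4 without array 59 and 3 without array 70, and the count of 5 on the minus side was 3 without array 60. Of 104 chemoreceptor genes 3 were called, against 8.36% of all genes. Ir75d (0.49, limma adjusted p = 0.000316), a receptor of the antenna, stood on the plus side. Ir47a (-0.38) and Or63a (-0.24) stood on the minus side, both with a call that some left-out arrays removed. Without array 71 or 72, 2 chemoreceptor elements were called plus, and 1 or 0 were called minus without array 58, 59, 60, 61, 70, 72 or 73. Of 20 neuronal genes 1 was called, brp (-0.38, limma adjusted p = 0.00161), a protein of the synaptic active zone, whose second element gave 0.14 (limma adjusted p = 0.407); without array 59 or 72, 2 neuronal elements were called.

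Of 22 flight muscle genes, 4 were called plus and 1 minus, against 5.59% and 2.77% of all genes. bt, encoding the giant protein projectin, stood at 0.41 (limma adjusted p = 0.000438) on 1 element and at 0.15 (limma adjusted p = 0.145) on the other, and Mf, encoding myofilin, at 0.35 and 0.27 on 2 called elements. Gpdh1, an enzyme that feeds flight metabolism, stood at 0.27 and tn, which encodes the muscle protein thin, at -0.29. The count of muscle elements called on the plus side was 5 on all arrays and 3 without array 61, 70 or 71, and 2 were called minus without array 59. Of 20 genes tied to juvenile hormone, 2 were called on the plus side, Jhbp3 (0.53, limma adjusted p = 2.07e-05) and Jhbp11 (0.29), and 3 on the minus side, among them Jhbp7 (-0.34, limma adjusted p = 0.0014) and Jhbp2 (-0.25), whose call was lost without some arrays. Jhbp2 stood on the minus side on 4 of 8 arrays, with a mean of -0.66 on arrays 58 to 61 and of 0.16 on arrays 70 to 73. Without array 58, 59, 71 or 73, 1 gene of this list was called on the minus side.

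Of 12 genes of the circadian clock, 3 were called plus and 0 minus, against 5.59% and 2.77% of all genes. cwo (0.38, limma adjusted p = 0.00118) and vri (0.30), which encode repressors of the clock, were called. So was tim (0.34, limma adjusted p = 0.00183), which encodes the light-sensitive partner of period. The second element of tim gave 0.25 (limma adjusted p = 0.116). Of 17 heat shock genes 3 were called, Hsp27 (-0.40, limma adjusted p = 0.000227), Hsc70-1 (0.34) and DnaJ-1 (-0.21), the last with a call lost without some arrays. The count of heat shock elements called on the minus side was 2 on all arrays and 1 without array 58, 60, 61, 70, 71, 72 or 73.

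The fat body, which stores fat and secretes blood proteins, had calls on both sides. Of 24 genes, 8 were called plus and 6 minus, against 5.59% and 2.77% of all genes. fit, a fat body gene that is higher in females and signals satiety, had 1.23, 0.96, 1.101 and 0.53 on arrays 58 to 61 and 1.03, 0.58, 0.81 and 1.47 on arrays 70 to 73. Values ranged widely within either orientation but none was below 0.5, and the difference was 0.96 (SE 0.0897, 1.95-fold, limma adjusted p = 3.44e-07). Adh, alcohol dehydrogenase, stood at 0.51 (0.20 on its other element, limma adjusted p = 0.116), apolpp, the main lipid carrier of the blood, at 0.43, and the fatty acid desaturase Desat1 at 0.24 to 0.43 on 4 called elements. These 4 largest were all plus, so the 6 minus genes are named as well. They were CG5966 (-0.35), Fbp1 (-0.33), Obp99b (-0.28), Lsd-2 (-0.26), Obp44a (-0.25) and Fbp2 (-0.24). The count of fat body elements called on the plus side was 11 on all arrays and 7 without array 70. Of 8 Npc2 genes, which encode carriers of sterols, 1 was called: Npc2e had 1.49, 1.37, 1.01 and 1.65 on arrays 58 to 61 and 0.76, 0.63, 1.08 and 0.54 on arrays 70 to 73, a difference of 1.07 (SE 0.0772, 2.09-fold, limma adjusted p = 7.99e-09). Its orientations overlapped through array 72 alone, and all 8 arrays were on the plus side.

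Of 88 cuticle protein genes, 6 were called minus and 2 plus, a share near that of all genes (8.36%). Cpr49Ah (-0.61), Cpr97Eb (-0.53) and Cpr92F (-0.37) stood on the minus side on 8 of 8 arrays and TwdlT (0.30) on the plus side, where 1 element was called without array 60, 61, 72 or 73. Of 38 cytosolic ribosomal protein genes, 5 were called on the minus side: RpL3 stood at -0.70 on 1 element and at 0.14, 0.11 and 0.00 on its 3 others, none of which was called, and RpL23 (-0.27, with -0.07 and a limma adjusted p of 0.685 on its other element), RpS18 (-0.26) and RpL40 (-0.23) each lost the call without some arrays. RpS18 and RpL40 changed side between the orientations. Their means were 0.08 and 0.06 on arrays 58 to 61, and -0.60 and -0.51 on arrays 70 to 73. Between 1 and 3 ribosomal elements were called on the minus side without array 58, 59, 60, 70, 72 or 73. Of 69 genes of oxidative phosphorylation, 4 were called, SdhC (0.29) and ND-51 (0.20) on the plus side and COX4L (-0.27) and ATPsynCF6 (-0.26) on the minus side, and without each array in turn the count fell to 1 or 0 on 1 side or both. Of 36 proteasome genes 3 were called, all on the minus side, against 2.77% of all genes on that side. They were Rpn3 (-0.43), Rpn12 (-0.30, a call lost without some arrays) and Prosbeta4 (-0.25). Of 10 genes of dosage compensation and sex determination, tra2 (-0.23) was called, and 0 were called without array 59, 60, 61, 70, 71 or 72.

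The same strain difference could be read a second way, from the 16 arrays on which each mutant strain was hybridised with OregonR, which share no array with the direct comparison but may share RNA extracts. Across 14949 elements measured both ways, the direct difference and the difference through OregonR correlated at r = 0.735 (Spearman rho 0.533), given as a description across elements. Of 1080 directly called elements with a value through OregonR, 1050 lay on the same side (97.2%), against 67.7% of all elements. The route through OregonR had a larger median SE, 0.106 against 0.0702, and called 481 of 15138 elements (3.18%), 321 of them plus (2.12%). Among elements measured both ways, 411 were called by both routes, which is 38.1% of the 1080 direct calls and 85.6% of the 480 calls through OregonR, and 0 were called on opposite sides. The 44 direct elements of 2-fold or more were called both ways. With each of the 1080 values signed so that the direct side is positive, the median was 0.32 on the direct arrays and 0.32 through OregonR.

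The test of the direct minus the indirect difference called 0 of 14949 elements with limma (0%), and 410 (2.74%) had an unadjusted p under 0.05. The lowest adjusted p of this test was 1.00 with limma, which does not show that the values were equal, and single elements differed by up to 0.86. Among the 24 genes, CG11912 had the lowest unadjusted p (0.00982), with 1.11 directly and 1.43 through OregonR. LysE stood at -2.20 directly and at -2.12 through OregonR, CG4363 at 2.05 and 2.08, tobi at 1.16 and 1.26, and Sclp at -1.09 and -0.93. The egg shell list had a median of -0.34 directly and -0.18 through OregonR.

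**Figure D3:**
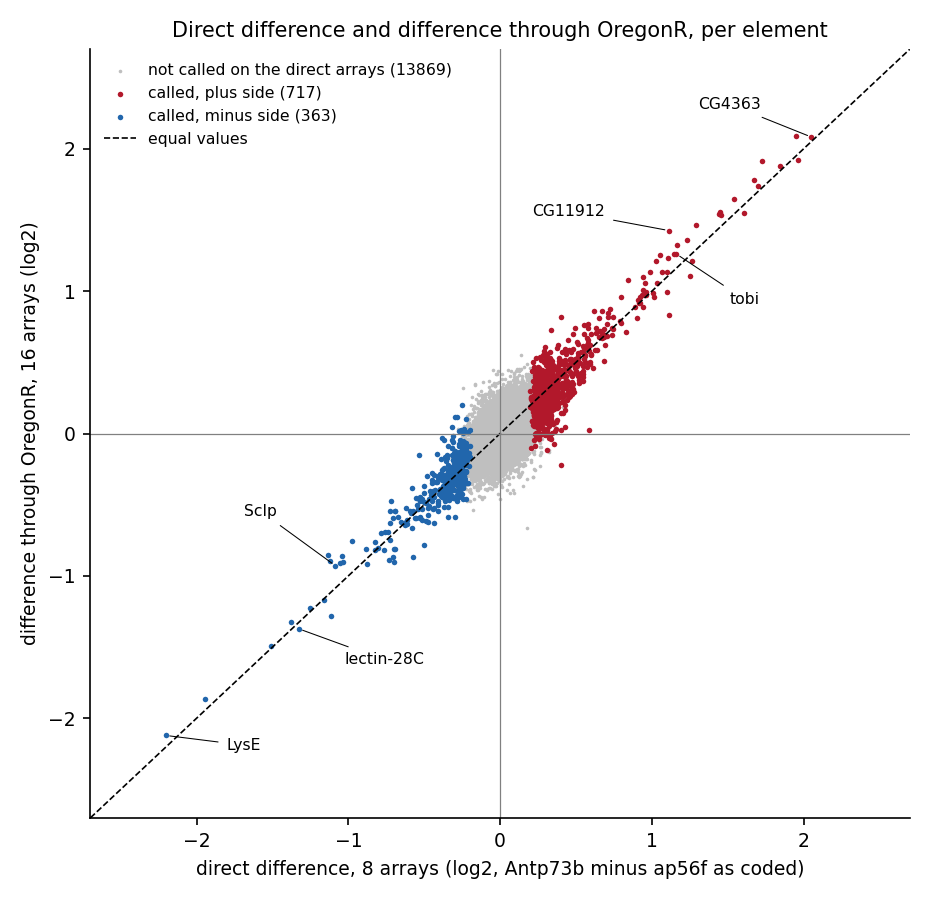
Strain difference of each element on the 8 direct arrays (horizontal axis, log2) and through OregonR on 16 other arrays (vertical axis, log2), with directly called elements in red (717, plus side) and blue (363, minus side) and the dashed line at equal values. The large differences, from LysE at -2.20 and -2.12 to CG4363 at 2.05 and 2.08, lie along the line, while small ones scatter around it.

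Set against OregonR, direct calls were also called for Antp73b, for ap56f, for both or for neither. Antp73b was called against OregonR for 2003 of 15138 elements (13.2%), 1149 of them plus (7.59%), and ap56f for 895 (5.91%), 471 of them plus (3.11%). Both use OregonR RNA, so values and calls are only set side by side. The share of all elements in each class below was not computed, so the counts do not show an excess. Of the 1080 direct calls, Antp73b alone was called, on the direct side, for 424, and ap56f alone, on the opposite side, for 144. Both were called on opposite sides of OregonR for 40, both on the direct side for 97 and both on the other side for 41. Neither was called for 332, and 2 fell in none of these classes. On the plus side Antp73b alone was called for 326 of 717 and ap56f alone for 49, and on the minus side for 98 and 95 of 363.

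Single genes showed several of these patterns. CG4363 stood at 2.27 in Antp73b and 0.19 in ap56f against OregonR, and lectin-28C at -1.51 in Antp73b and -0.14 in ap56f. Sclp stood at 0.18 in Antp73b and 1.11 in ap56f, and MtnB at -0.10 in Antp73b and 0.72 in ap56f. CG7953 stood on opposite sides, 0.59 in Antp73b and -1.15 in ap56f, as did dyw, -0.32 in Antp73b and 0.91 in ap56f. Genes that left OregonR in the same direction in both strains differed by size: tobi stood at 2.78 in Antp73b and 1.52 in ap56f, Mtk at 2.41 in Antp73b and 1.36 in ap56f, and LysE at -2.74 in Antp73b and -0.62 in ap56f. The egg shell genes belong with these, with list medians of -0.81 in Antp73b and -0.52 in ap56f. Arr2 stood at 0.28 in Antp73b and 0.91 in ap56f, and Jon99Ci at -0.30 in Antp73b and 0.60 in ap56f.

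**Figure D4:**
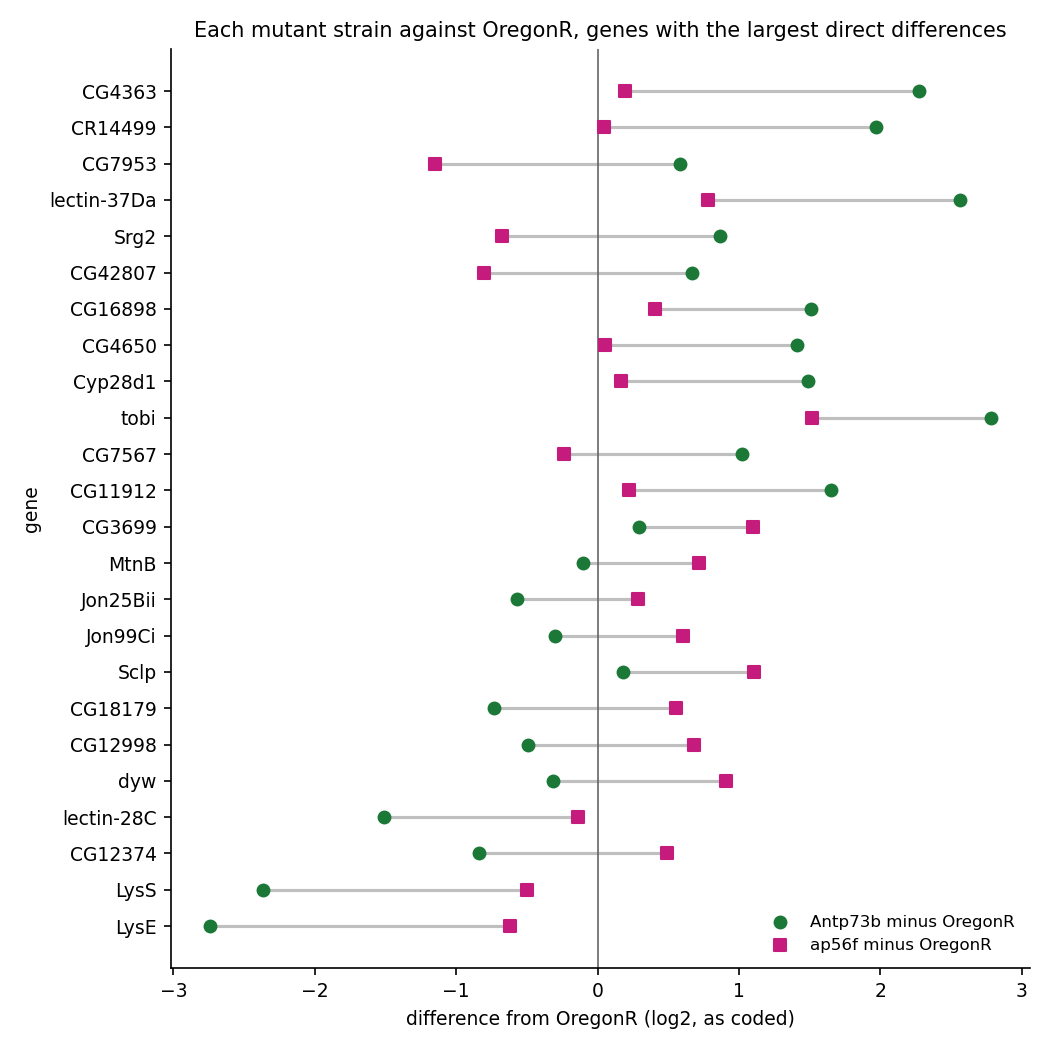
Differences from OregonR (log2, horizontal axis) of the 24 genes with the largest direct differences, as circles for Antp73b and squares for ap56f, from a fit of 16 arrays. tobi, lectin-37Da, LysE and LysS lie on the same side of OregonR in both strains, while CG7953, dyw and Jon99Ci lie on opposite sides.

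Called genes lay beside each other in several places. Counting tested genes in chromosome order, 10 runs of 3 or more neighbours were called on the plus side (42 genes) and 2 on the minus side (6 genes). The longest was the GstD cluster on 3R, where 8 genes from GstD10 to GstD8 stood at 0.37 to 0.55, while GstD11 beside them stood at 0.04 (limma adjusted p = 0.821). On 2L, 6 neighbours were called: CG33306 (0.24), CG8997 (0.94), CG7916 (0.40), CG7953 (1.70), CG7968 (0.96) and Ance (0.44), an angiotensin-converting enzyme, and the next gene Ance-2 stood at -0.05 (limma adjusted p = 0.833). On 2R the maltases Mal-A1 (0.74), Mal-A2 (0.31), Mal-A3 (0.29), Mal-A4 (0.55) and Mal-A6 (0.51) formed a run of 5, Mal-A7 (0.19) was not called and Mal-A8 (0.46) was.

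Other runs on the plus side held the chitinase-like growth factors Idgf1, Idgf2 and Idgf3, the genes Cyp28d2, Cyp28d1 and CG7742, the genes from GstE4 to GstE7, and EbpII with Ebp and CG9380. On the minus side were Jon25Biii (-0.69, with a value on 4 of the 8 arrays), Jon25Bii (-1.04) and Jon25Bi (-0.59) on 2L. The other minus run was Gbeta76C with the chitin deacetylase genes verm and serp on 3L. Several of these runs are families of similar genes, which may share signal on spotted DNA. By chromosome arm, 10.3% of tested genes were called on 2R, 9.66% on 2L, 8.07% on 3L, 7.94% on 3R and 6% on the X chromosome, and 6 of 54 on chromosome 4.

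**Figure D5:**
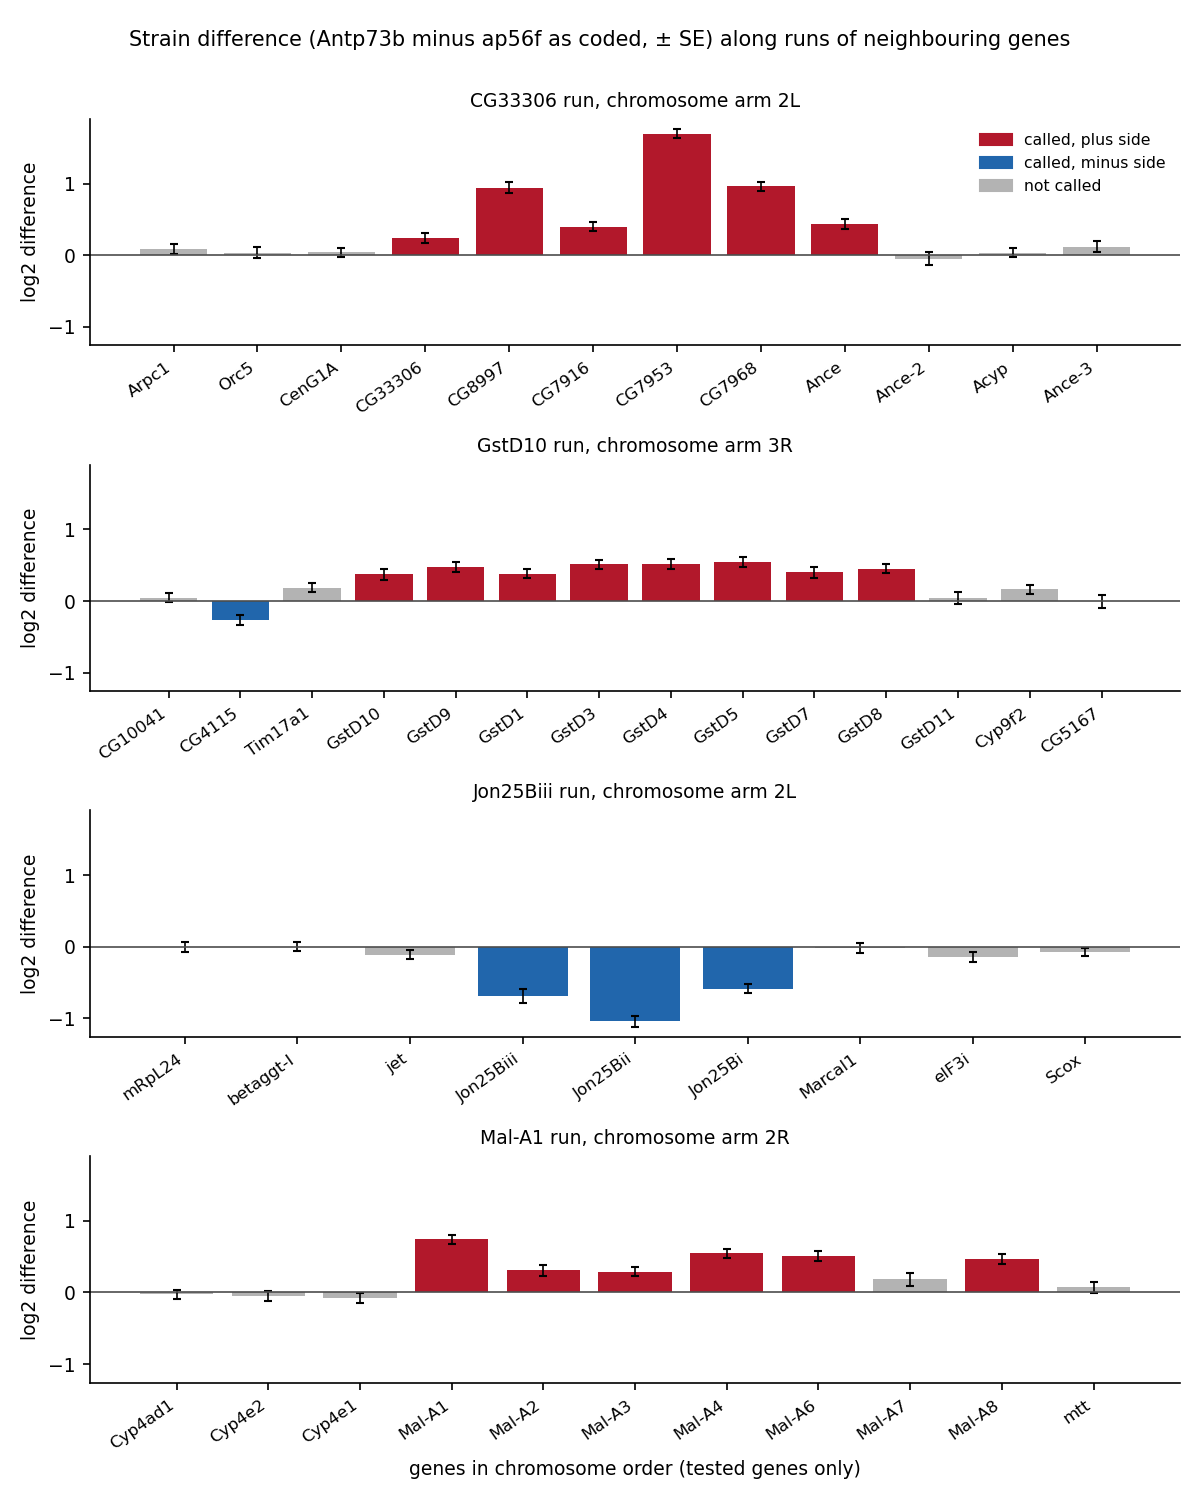
Strain difference with its SE (log2, vertical axes) of tested genes in chromosome order around 4 runs of called neighbours, with called genes in red (plus side) or blue (minus side) and others in grey. The 8 GstD genes stand at 0.37 to 0.55 and the 3 Jon25B genes at -1.04 to -0.59, and most flanking genes lie near 0.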

How the data were processed

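mRNA of whole adult flies was measured on 2-colour arrays, with 200 ng of mRNA per labelling and a GenePix 4000A scan, per the labels' protocols; the steps between scan and ratio are not stated there. The deposited table, as the authors made it, holds 1 signed fold ratio (1 decimal) per spot, a unit read from its values, none of which lay between -1 and 1. A fold of 1 or -1 made up 19.1% of values, and the next step is 0.14 on the log2 scale, so small differences are coarse on 1 array. The table had 0 columns of other samples.

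Log2 ratios were computed as the sign times the log2 of the size, centred on each array's median, averaged over spot pairs and turned on arrays 70 to 73. Elements without a value on at least 2 of 4 arrays of each orientation were left out (654), which kept 15078. limma 3.58.1 in R 4.3.3 (lmFit, eBayes, two-sided, Benjamini-Hochberg) fitted a dye intercept and a strain term on the 8 arrays; the direct minus indirect contrast used 24 arrays, and the values against OregonR came from a separate fit of 16. Adjusted p-values are those of these fits. Tables and figures were made in Python 3.11.15 with pandas 2.3.3 and matplotlib 3.10.9. Gene symbols were read from the probe annotation and brought up to date for 12220 elements with RefSeq's gene table, which also gave chromosome arms and gene order. List medians use 1 element per gene. Steps were tested on simulated data. Named genes are, per side, the 12 with the largest difference among elements that were called, had 1 gene and 8 values, Antp and ap, and the 4 largest called members of each list; others are marked. The comparison and the 35 lists were chosen with earlier results of these data known.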

Additional observations from a re-analysis of the deposited data

Results flagged for a closer look

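Array values of the named elements were compared within each orientation, and in 13 of 228 groups of 4 arrays 1 value lay apart from the other 3 by Dixon's criterion at the 95% level. Chance gives about 1 such group in 20. All values are turned log2 ratios. On array 71 these were CG16898 at 0.96 (the others 1.23 to 1.26), Drs at -0.38 (the others -0.26), Obp56g at 0.12 (0.43 to 0.47), SdhC at 0.14 (0.13), ND-51 at 0.00 (0.07) and Rpn12 at -0.53 (-0.20 to -0.19). On array 60 they were iotaTry at -0.71 (-0.31 to -0.24) and Jhbp7 at -0.32 (-0.38 to -0.37), and on array 61 Gbeta76C at 0.20 (-0.26 to -0.20) and tim at 0.76 (0.37 to 0.43). On array 73 they were Jhbp7 at -0.06 (-0.43 to -0.38) and tra2 at 0.19 (-0.26 to -0.19), and on array 59 cwo at 0.49 (0.42 to 0.43). The gaps of SdhC, ND-51, cwo, Drs and, on array 60, Jhbp7 are smaller than the 0.14 step of the deposited ratios. The calls of CG16898, Drs, Obp56g, Jhbp7, cwo, tim and SdhC were kept with each array left out in turn, and those of iotaTry, Gbeta76C, ND-51, tra2 and Rpn12 were not.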

How the results depend on the processing

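The count of 1085 called elements was 2288 with all 36 arrays in the fit, 563 without a dye term, 505 with the first spot of each pair alone and 571 with the second. It was 164 on the first 2 arrays of each orientation, 130 on the last 2, 202 on even-numbered and 142 on odd-numbered arrays, with fewer arrays in each of these fits; the cause of the other changes was not tested. Leaving out 1 array in turn gave 783 to 966 calls. The test of direct minus indirect called 0 elements under every alternative tried. Of the 115 named elements that were called, 115 kept their side in each of the 4 fits of 4 arrays, and 19 lost the call without at least 1 array. The 24 largest kept their call under every alternative in which they were measured, except 2 of 24 on the first 2 arrays of each orientation (23 were measured with all 36 arrays). The named elements, the 24 largest among them, were chosen as called and large in the main fit of the direct arrays. The alternatives use the same arrays or a part of them, so keeping a side or a call partly follows from that choice. ap, at -0.19 on the direct arrays, passed with all 36 arrays (-0.20, limma adjusted p = 0.0289). In fits of the direct arrays alone, its limma adjusted p was 0.0596 to 0.443 with 1 array left out. No paired analysis was possible because array numbers are unique and no label pairs an array of 1 orientation with one of the other. Blocks for place (first or last 2 arrays of an orientation) and for even or odd numbers, which are batches and not pairs, gave 1257 and 1034 calls.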
